A study of Mus musculus with 26 samples.

Results

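DNA replication genes are the genes whose products mark, open and copy the chromosomal DNA once in each S phase, and 44 of them were chosen as a list by name from the 35944 genes with a matched transcript. They were followed in TCRTg101, CD8+ T cells whose single transgenic receptor recognises the mouse leukemia line C1498. All cells came from Rag2-/- Tg101 mice, whose receptor genes cannot rearrange otherwise, and the labels give strain C57BL/6, genotype wild type and an age of 6 weeks for every sample. Apart from the day 0 cells, TCRTg101 were labelled with CellTrace Violet, transferred into host mice (C57BL/6 or the congenic B6.SJL in the study's methods, not given by library) and recovered by flow cytometry, and C1498 cells were injected intravenously 1 day after transfer where the host was leukemia-bearing.

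The control group held naive TCRTg101 from spleen at day 0 (controls 1 and 2) and TCRTg101 from the spleen of a leukemia-free host at day 18 (control 3). The leukemia-bearing groups were early spleen (2 libraries, day 7), mid spleen (1 library, day 14), early liver (2 libraries, day 7), mid liver (3 libraries, days 13, 13 and 14), late liver (2 libraries, days 18 and 16) and undivided cells (1 library, spleen, day 18, sorted for undiluted dye). A further day 0 library was made with ordinary oligo-dT priming and entered no test. Controls came from spleen, so that tissue and leukemia cannot be told apart in liver against control. The titles place control 1, mid liver 1, late liver 1 and the oligo-dT library in a TG series and the others in an XC series, taken here as the sequencing batch.

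The 14 low-input libraries held between 22691066 and 70719462 estimated counts (median 34038005). Summed counts of 8 CD8 T cell markers were high in all of them, between 3908 and 9103 CPM (counts scaled by TMM to library size, the unit of every level here unless TPM is named). Hepatocyte markers summed to 1.06 to 316 CPM in controls, nearly all of it Trf in control 1, and to 3.69 to 367 CPM in mid and late liver. Alb alone was at most 0.72 CPM in the spleen libraries, 3.13 and 0.901 CPM in early liver, 85.1, 8.41 and 0.905 in mid liver and 131 and 24.2 in late liver. Red cell and macrophage genes were highest in the day 0 controls, with a summed erythroid level of 2487 and 9999 CPM in controls 1 and 2 against 2.23 to 103 in mid and late liver. Myeloid markers summed to 10.2 to 467 CPM in controls and to 11.7 to 48.7 CPM in mid and late liver. The part of these other cells in the results was not tested, nor that of C1498 cells, for which no marker list was used.

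Replication starts at origins, which the origin recognition complex marks and on which Cdc6 and Cdt1 load the ring of Mcm2 to Mcm7. At the start of S phase Cdc45 and the GINS proteins turn that ring into the moving helicase, and polymerases, clamp and clamp loader copy the opened strands. Naive T cells rest outside the cycle, and after antigen contact they divide many times, which needs all of these proteins and a supply of deoxynucleotides. E2F factors switch many of these genes on, and E2F1, E2F2 and cyclins E1 and E2 are counted here among the members.

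Promoters are shown so that the members with the largest and smallest changes can be compared letter by letter. RefSeq promoter windows (GRCm38.p6, 250 bases before to 50 after each start) matched 36 of the 44 members in 42 windows, and Mcm4, Ccne2, Gins1, Rfc2, Gmnn, Prim2, Pole and Gins2 were not matched. Below are the 250 bases before the start for the 3 members with the largest rise in late liver, for Mcm5, and for the 2 with the smallest change, 5′ to 3′, with capitals for the E2F words TTTCCCGC, TTTCGCGC, TTTGCCGC and TTTGGCGC and for CCAAT, on either strand.
Cdc6, chr11:98907901-98908150, plus strand: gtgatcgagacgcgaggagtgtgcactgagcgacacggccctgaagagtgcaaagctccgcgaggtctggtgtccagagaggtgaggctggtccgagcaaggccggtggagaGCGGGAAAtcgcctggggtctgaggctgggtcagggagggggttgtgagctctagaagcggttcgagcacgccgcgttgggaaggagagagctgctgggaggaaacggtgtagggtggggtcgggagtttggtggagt
Mcm10, chr2:5012792-5013041, minus strand: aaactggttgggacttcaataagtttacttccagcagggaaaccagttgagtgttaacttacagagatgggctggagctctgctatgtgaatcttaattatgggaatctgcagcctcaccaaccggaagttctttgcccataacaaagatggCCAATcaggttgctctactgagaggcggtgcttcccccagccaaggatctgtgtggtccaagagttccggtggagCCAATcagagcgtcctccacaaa
Rrm2, chr12:24708004-24708253, plus strand: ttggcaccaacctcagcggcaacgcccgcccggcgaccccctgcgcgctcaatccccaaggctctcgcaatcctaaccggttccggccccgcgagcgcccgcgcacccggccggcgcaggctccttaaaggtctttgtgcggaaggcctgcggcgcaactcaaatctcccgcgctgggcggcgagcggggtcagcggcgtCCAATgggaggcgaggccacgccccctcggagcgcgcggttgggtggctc
Mcm5, chr8:75109259-75109508, plus strand: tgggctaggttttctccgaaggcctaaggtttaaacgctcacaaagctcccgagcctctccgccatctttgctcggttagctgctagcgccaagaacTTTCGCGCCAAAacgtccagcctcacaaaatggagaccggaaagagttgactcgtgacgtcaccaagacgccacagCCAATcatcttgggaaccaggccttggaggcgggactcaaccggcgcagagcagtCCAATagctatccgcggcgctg
Cdt1, chr8:122567765-122568014, plus strand: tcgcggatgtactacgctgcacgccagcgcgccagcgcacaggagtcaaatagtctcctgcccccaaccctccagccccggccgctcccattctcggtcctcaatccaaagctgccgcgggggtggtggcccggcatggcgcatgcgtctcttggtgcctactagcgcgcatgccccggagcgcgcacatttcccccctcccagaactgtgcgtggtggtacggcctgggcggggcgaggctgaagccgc
Rpa1, chr11:75348384-75348633, minus strand: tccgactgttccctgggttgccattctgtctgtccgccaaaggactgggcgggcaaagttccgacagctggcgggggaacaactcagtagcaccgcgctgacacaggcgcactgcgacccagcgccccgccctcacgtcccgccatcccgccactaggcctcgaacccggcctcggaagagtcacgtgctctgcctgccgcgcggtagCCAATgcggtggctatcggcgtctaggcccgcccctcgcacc
In these stretches Cdc6 held 1 E2F word and Mcm5 held 2 that overlap each other, while none was found in the stretches of Mcm10, Rrm2, Cdt1 and Rpa1. Over the whole windows, 14 of the 36 matched members held at least 1 of the 4 E2F words. By window this was 33.3% of the members' windows and 2.26% of all 32851 windows of that length. CCAAT, the word bound by NF-Y, was in 54.8% of the members' windows and 37.4% of all windows, and TTTGAA, a cell cycle word, was in 14.3% and 17.9%. The windows with an E2F word belonged to Cdc6, Cdt1, E2f2, Gins3, Lig1, Mcm3, Mcm5, Mcm6, Mcm7, Orc1, Pola1, Pold1, Pole2 and Rfc3, a set that holds members with large and with small changes.

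Most DNA replication genes were higher in the mid and late liver of leukemia-bearing hosts than in the controls. In mid liver against control, 42 of the 44 members were higher at an adjusted p under 0.05 (edgeR quasi-likelihood test, Benjamini-Hochberg over 14616 genes) and none was lower, where 17.3% of all tested genes were higher (31.3% called in either direction). In late liver against control 42 were again higher and none lower, where 19.8% of all tested genes were higher (37.5% called in either direction). The median log2 fold change of the members was 2.06 in mid liver (0.49 to 5.68) and 2.36 in late liver (0.65 to 5.65), beside -0.06 and -0.03 over all tested genes. E2f2 did not pass in either comparison, Rpa1 did not pass in mid liver and Cdt1 did not pass in late liver. Bulk libraries do not tell more cells with a transcript from more transcript per cell. The labels do not say whether libraries came from separate mice, so the p-values may measure technical spread only.

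These calls rested on few libraries. Without control 1, no member passed in either comparison by the same test (41 had an unadjusted p under 0.05 in each), and the count was also 0 in mid liver without control 2, mid liver 1 or mid liver 3 (43, 41 and 41 unadjusted) and in late liver without either late library (41 and 41 unadjusted). Shares over all tested genes in these fits are not given here, so the counts of 0 are not read as a trait of the members. All 44 log2 fold changes stayed above 0 in each of these fits, with medians from 1.78 to 2.48. Within the series, every member was higher in late liver than in the control of the same series: by 1.97-fold (Cdt1) to 36.5-fold (Mcm10) in TG and by 1.40-fold (Rpa1) to 69.2-fold (Cdc6) in XC.

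**Figure D1:**
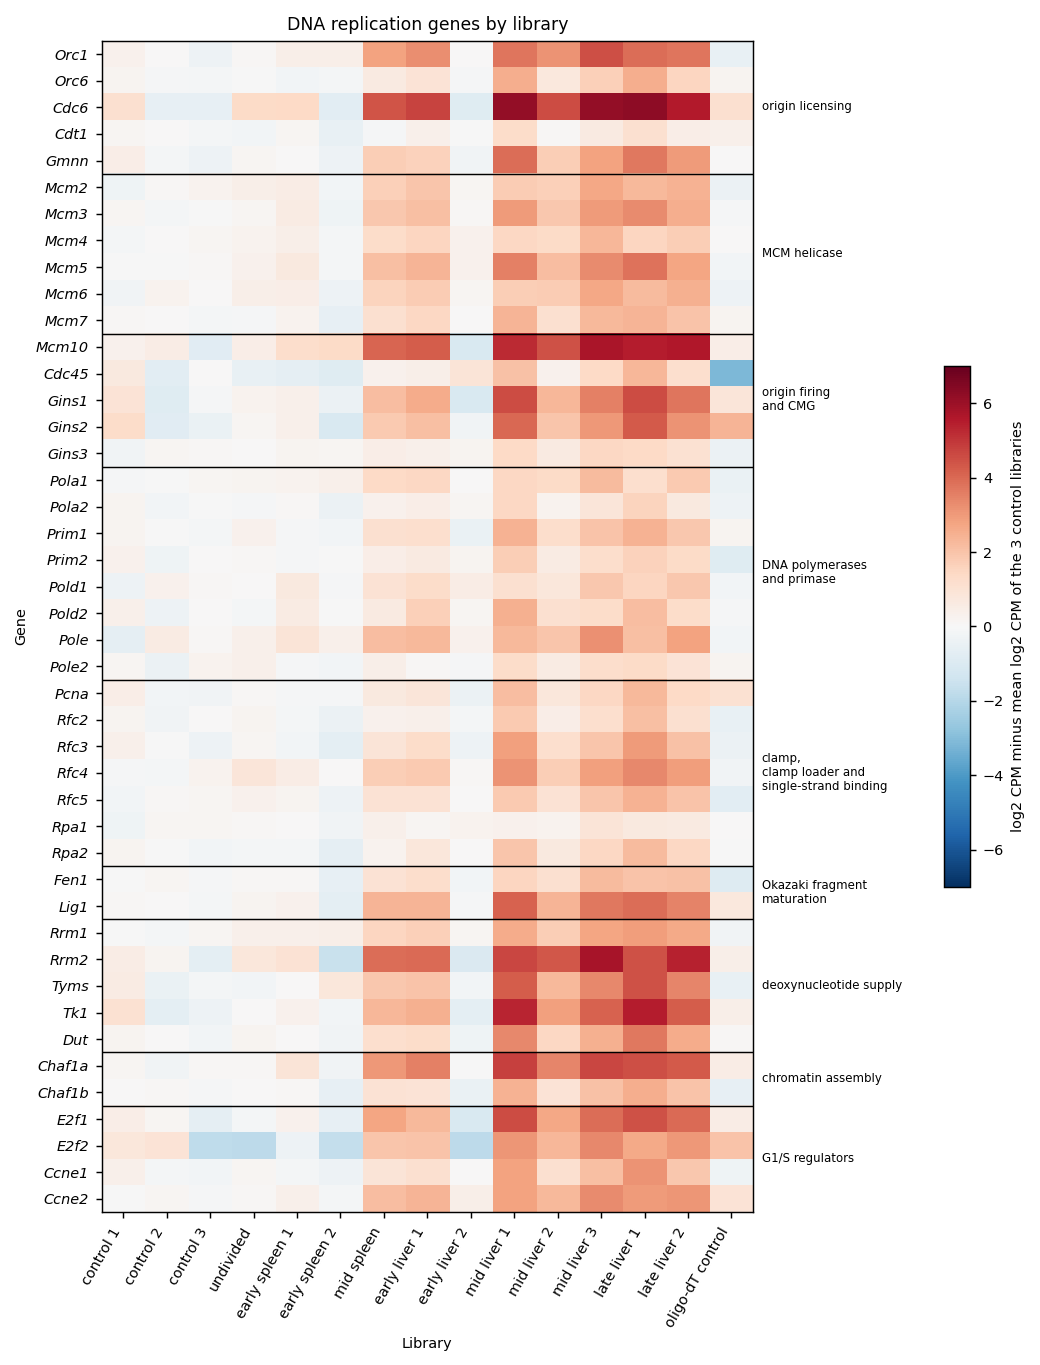
Log2 CPM of each of the 44 members (rows, by role) in each of the 15 libraries (columns), minus the mean log2 CPM of the 3 control libraries; red is higher and blue lower. Mid liver, late liver, mid spleen and early liver 1 are red for nearly all members, and undivided, early spleen and early liver 2 are close to the controls.

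The licensing genes ranged from the largest change of any member (Cdc6) to one of the smallest (Cdt1). Cdc6, which loads the MCM ring, had 3.44, 1.03 and 1.06 CPM in controls 1 to 3, 4.01 in the undivided library, 4.14 and 0.937 in early spleen and 33.4 in mid spleen. It had 40.98 and 0.87 CPM in early liver, 109.9, 36.7 and 109.7 in mid liver and 121 and 72.2 in late liver. No mid or late liver library overlapped the controls, with a log2 fold change of 5.68 ± 1.26 (SE) for mid liver and 5.65 ± 1.29 for late liver against control (adjusted p = 0.0231 and 0.0178). Orc1, the largest subunit of the origin recognition complex, had 1.68, 1.37 and 1.06 CPM in controls 1 to 3, 1.41 in the undivided library, 1.80 and 1.77 in early spleen and 9.45 in mid spleen. It had 12.8 and 1.40 CPM in early liver, 17.96, 12.1 and 30.6 in mid liver and 20.3 and 18.1 in late liver, again with no overlap between controls and mid or late liver, and a log2 fold change of 3.87 ± 0.78 (SE) for mid liver and 3.76 ± 0.81 for late liver against control (adjusted p = 0.022 and 0.0151). Cdt1, the partner of Cdc6 in loading, had 65.1, 58.9 and 52.4 CPM in controls 1 to 3, 50.9 in the undivided library, 64.2 and 40.1 in early spleen and 56.1 in mid spleen. It had 74.7 and 57.8 CPM in early liver, 144, 62.7 and 89.99 in mid liver and 128 and 80.04 in late liver, so that mid liver 2 lay within the controls, and gave a log2 fold change of 0.67 ± 0.22 (SE) for mid liver and 0.65 ± 0.24 for late liver against control (adjusted p = 0.0457 and 0.0594). The inhibitor of Cdt1, Gmnn, rose by a log2 fold change of 3.14 ± 0.54 in late liver, and Orc6 by 1.84 ± 0.38.

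All 6 subunits of the MCM ring rose in both comparisons, with log2 fold changes from 1.66 (Mcm4) to 3.16 (Mcm5) in late liver. Mcm5 had 58.5, 60.7 and 63.2 CPM in controls 1 to 3, 73.8 in the undivided library, 99.3 and 54.5 in early spleen and 257 in mid spleen. It had 321 and 75.5 CPM in early liver, 699.5, 269 and 611 in mid liver and 831 and 415 in late liver, and the controls spanned only 1.08-fold, with a log2 fold change of 3.04 ± 0.57 (SE) for mid liver and 3.16 ± 0.62 for late liver against control (adjusted p = 0.022 and 0.0128). Mcm2 had 71.9, 91.4 and 102 CPM in controls 1 to 3, 114 in the undivided library, 124 and 76.1 in early spleen and 274 in mid spleen. It had 335 and 94.7 CPM in early liver, 296, 274 and 569.9 in mid liver and 429 and 466 in late liver, and every mid and late library was above every control, with a log2 fold change of 2.08 ± 0.46 (SE) for mid liver and 2.39 ± 0.50 for late liver against control (adjusted p = 0.0227 and 0.014). On the deposited TPM, which corrects for length, the subunits were within 21.8 (Mcm3) to 46.5 (Mcm6) on average in controls and within 53.8 (Mcm4) to 183 (Mcm6) in late liver.

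Genes that turn the loaded ring into the working helicase rose as well. Mcm10, needed to start unwinding, had 1.84, 2.13 and 0.869 CPM in controls 1 to 3, 2.10 in the undivided library, 3.55 and 3.85 in early spleen and 25.4 in mid spleen. It had 27.96 and 0.715 CPM in early liver, 56.4, 33.5 and 79.7 in mid liver and 67.2 and 73.2 in late liver, with a log2 fold change of 5.10 ± 1.17 (SE) for mid liver and 5.39 ± 1.22 for late liver against control (adjusted p = 0.0242 and 0.0175). Mcm10 was thus at most 2.13 CPM in controls and at least 33.5 CPM in mid and late liver. Gins2, a GINS subunit, had 18.5, 4.28 and 5.37 CPM in controls 1 to 3, 8.28 in the undivided library, 9.52 and 3.57 in early spleen and 26.5 in mid spleen. It had 32.7 and 6.43 CPM in early liver, 121, 29.3 and 61.3 in mid liver and 146 and 66.01 in late liver, with a log2 fold change of 3.02 ± 0.59 (SE) for mid liver and 3.42 ± 0.63 for late liver against control (adjusted p = 0.022 and 0.0123). Gins3, another subunit, had 9.47, 12.5 and 11.9 CPM in controls 1 to 3, 11.5 in the undivided library, 12.9 and 12.1 in early spleen and 15.7 in mid spleen. It had 14.3 and 12.8 CPM in early liver, 29.4, 17.2 and 30.1 in mid liver and 29.3 and 23.1 in late liver and a log2 fold change of 1.16 ± 0.26 (SE) for mid liver and 1.17 ± 0.29 for late liver against control (adjusted p = 0.0227 and 0.0187), beside 3.89 ± 0.88 for Gins1 in late liver. Cdc45, which completes the helicase, had 51.5, 19.1 and 32.8 CPM in controls 1 to 3, 22.2 in the undivided library, 20.5 and 17.5 in early spleen and 39.7 in mid spleen. It had 42.2 and 58.7 CPM in early liver, 134, 39.3 and 83.9 in mid liver and 159 and 72.7 in late liver, so that mid liver 2 overlapped the controls, and a log2 fold change of 1.27 ± 0.31 (SE) for mid liver and 1.52 ± 0.34 for late liver against control (adjusted p = 0.0244 and 0.0151).

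The small change of Cdc45 came with a change of transcript class. In the annotation Cdc45 has protein-coding transcripts and 1 that keeps an intron. Its protein-coding transcripts summed to 6.91, 4.49 and 2.59 CPM in the controls, 129.96, 32.98 and 81.03 in mid liver and 159 and 70.1 in late liver. The retained-intron transcript went the other way, with 44.6, 14.6 and 30.2 CPM in controls, 3.68, 6.32 and 2.88 in mid liver and 0.208 and 2.65 in late liver. Early liver 2 held 56.0 CPM of it and the oligo-dT library 0.88. On protein-coding transcripts alone, an alternative chosen after the data were seen, Cdc45 gave a log2 fold change of 4.28 ± 0.87 in late liver (adjusted p = 0.0163). With that sum all 44 members were higher in every mid and late library than in every control, 41 were called in mid and 41 in late liver, and the median was 2.25 and 2.42. Shares over all genes with that sum are not given here, so these counts have no background beside them. Of the 34 members with a retained-intron transcript, 3 (Orc6, Cdc45 and Pola1) had less of it in every mid and late library than in any control, where 28% of 7632 other genes counted in all of these libraries had, and 7 had more, where 3.42% had. As a share of each gene's counts it was lower in every mid and late library for 20 of the 34, where 25.9% of other genes were, and higher for none. The median share over these 34 was 10.9% to 16.5% in controls and 2.45% to 4.28% in mid and late liver, and over 7763 other genes 8.61% to 9.97% and 3.94% to 6.17%. Kallisto splits reads between such transcripts by model, and the part of unspliced RNA or priming in these values was not tested.

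**Figure D2:**
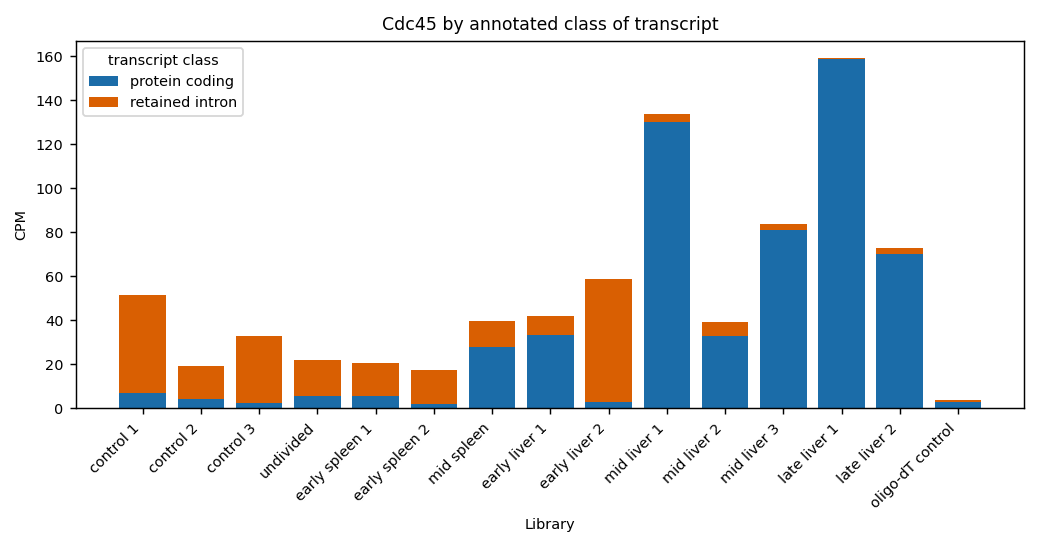
CPM of Cdc45 in each of the 15 libraries, split into protein-coding (blue) and retained-intron (orange) transcripts. Orange makes up most of the bar in the controls, undivided, early spleen and early liver 2, and blue makes up most of it in mid and late liver.

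Polymerases and primase had a median log2 fold change of 1.53 in late liver over 8 members, all called, beside 3.42 for the 5 genes of origin firing. Pole, the catalytic subunit of the leading-strand polymerase, had 7.76, 17.9 and 13.2 CPM in controls 1 to 3, 15.8 in the undivided library, 22.6 and 15.4 in early spleen and 54.6 in mid spleen. It had 59.9 and 14.9 CPM in early liver, 58.8, 46.9 and 112 in mid liver and 52.5 and 85.04 in late liver, with a log2 fold change of 2.52 ± 0.54 (SE) for mid liver and 2.53 ± 0.57 for late liver against control (adjusted p = 0.0226 and 0.0169). No mid or late liver library overlapped the controls. Pola1, the catalytic subunit of the polymerase that starts each strand, had 17.2, 17.8 and 19.98 CPM in controls 1 to 3, 20.7 in the undivided library, 21.6 and 23.3 in early spleen and 48.03 in mid spleen. It had 49.3 and 18.4 CPM in early liver, 50.4, 45.95 and 83.8 in mid liver and 40.7 and 64.6 in late liver, with a log2 fold change of 1.68 ± 0.37 (SE) for mid liver and 1.53 ± 0.40 for late liver against control (adjusted p = 0.0226 and 0.022). Its partner subunit Pola2 had 76.9, 60.2 and 67.5 CPM in controls 1 to 3, 64.1 in the undivided library, 71.6 and 51.2 in early spleen and 82.2 in mid spleen. It had 95.2 and 74.03 CPM in early liver, 186, 80.04 and 124 in mid liver and 199 and 110.3 in late liver, one of the smallest rises, with a log2 fold change of 0.85 ± 0.23 (SE) for mid liver and 0.98 ± 0.25 for late liver against control (adjusted p = 0.0276 and 0.0203). Pold1, the catalytic subunit of the lagging-strand polymerase, had 48.2, 75.3 and 65.2 CPM in controls 1 to 3, 63.8 in the undivided library, 99.8 and 59.01 in early spleen and 126 in mid spleen. It had 149.8 and 89.8 CPM in early liver, 136, 107 and 225 in mid liver and 174 and 229 in late liver, with a log2 fold change of 1.31 ± 0.30 (SE) for mid liver and 1.73 ± 0.32 for late liver against control (adjusted p = 0.0227 and 0.0112). Pold1 was also above all controls in both early liver libraries. The accessory subunit Pold2 had 44.9, 27.8 and 36.2 CPM in controls 1 to 3, 32.8 in the undivided library, 52.1 and 35.4 in early spleen and 55.7 in mid spleen. It had 114 and 39.7 CPM in early liver, 199.95, 76.2 and 87.5 in mid liver and 161 and 85.9 in late liver. Pole2, an accessory subunit of the leading-strand enzyme, showed 15.4, 10.6 and 16.3 CPM in controls 1 to 3, 17.9 in the undivided library, 13.2 and 12.2 in early spleen and 18.2 in mid spleen. It had 14.6 and 13.2 CPM in early liver, 34.3, 20.6 and 32.99 in mid liver and 34.8 and 27.3 in late liver, and both early liver levels lay within the control range. Both were called in mid and late liver, at log2 fold changes of 1.53 and 1.06 in late liver.

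The clamp and Rfc2, 1 subunit of its loader, were the most abundant members before any rise. On TPM, Rfc2 was the highest member in controls (96.4 on average) and in late liver (222). Pcna, the sliding clamp, was second in controls (88.7). The loader subunits Rfc5, Rfc4 and Rfc3 were at 20.5, 10.1 and 9.92 TPM in controls, ranks 18, 25 and 26. Retained-intron transcripts held 71.5%, 69.4% and 69.6% of the Rfc2 counts in controls 1 to 3. Its protein-coding transcript held 16.0%, 15.6% and 12.1%. Pcna had 156, 98.5 and 97.98 CPM in controls 1 to 3, 119.6 in the undivided library, 106 and 106 in early spleen and 185 in mid spleen. It had 204 and 85.5 CPM in early liver, 503, 200.4 and 316 in mid liver and 549.5 and 297 in late liver, with a log2 fold change of 1.47 ± 0.32 (SE) for mid liver and 1.65 ± 0.35 for late liver against control (adjusted p = 0.022 and 0.0131). Every mid and late library was above the controls. Rfc5, another loader subunit, had 33.1, 39.00 and 40.9 CPM in controls 1 to 3, 45.9 in the undivided library, 42.1 and 29.7 in early spleen and 76.8 in mid spleen. It had 74.8 and 38.7 CPM in early liver, 135, 76.98 and 147 in mid liver and 201 and 148 in late liver. Rfc5 was the only member whose late libraries did not overlap the mid libraries, with 148 CPM as the lowest late and 147 as the highest mid level. It was not called in late against mid liver. The share of all tested genes with such a separation was not determined, so it is not read as a trait of Rfc5. Rpa1 and Rpa2, which coat single strands, differed in their rise. Rpa1 had 143, 196 and 191 CPM in controls 1 to 3, 187 in the undivided library, 179.8 and 149 in early spleen and 223 in mid spleen. It had 191 and 209 CPM in early liver, 214, 210.2 and 329 in mid liver and 284 and 270.2 in late liver, with a log2 fold change of 0.49 ± 0.21 (SE) for mid liver and 0.69 ± 0.23 for late liver against control (adjusted p = 0.0924 and 0.0444). Rpa2 had 64.7, 54.9 and 48.6 CPM in controls 1 to 3, 49.9 in the undivided library, 51.2 and 35.95 in early spleen and 66.9 in mid spleen. It had 96.9 and 56.4 CPM in early liver, 216, 89.9 and 152 in mid liver and 258 and 149.96 in late liver, with a log2 fold change of 1.38 ± 0.27 (SE) for mid liver and 1.68 ± 0.30 for late liver against control (adjusted p = 0.022 and 0.0103). The difference between both genes was not tested.

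Joining of Okazaki fragments takes Fen1, which trims them, and Lig1, which seals them. Fen1 had 48.04, 54.1 and 47.1 CPM in controls 1 to 3, 53.01 in the undivided library, 51.9 and 33.3 in early spleen and 101 in mid spleen. It had 116 and 44.2 CPM in early liver, 139.7, 108 and 228 in mid liver and 201 and 209 in late liver, with a log2 fold change of 1.65 ± 0.38 (SE) for mid liver and 2.04 ± 0.42 for late liver against control (adjusted p = 0.0231 and 0.0131). As 79.6% of the 31-base words of Fen1 occur in another annotated gene, Gm10143 the most, its count is uncertain. Lig1 had 16.2, 15.2 and 13.7 CPM in controls 1 to 3, 17.3 in the undivided library, 18.8 and 9.19 in early spleen and 79.4 in mid spleen. It had 79.4 and 14.2 CPM in early liver, 259, 79.4 and 191 in mid liver and 229 and 165 in late liver, with a log2 fold change of 3.47 ± 0.65 (SE) for mid liver and 3.57 ± 0.69 for late liver against control (adjusted p = 0.022 and 0.0131). Lig1 was the member closest to the mean pattern of all members. Sharing was over 20% of words also for Gins2, Chaf1a, Mcm7 and Pcna.

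Deoxynucleotide supply was the role with the largest median change, a log2 fold change of 3.72 in late liver with all 5 members called. Rrm2, the regulated subunit of ribonucleotide reductase, had 9.29, 7.46 and 4.15 CPM in controls 1 to 3, 11.3 in the undivided library, 13.4 and 2.27 in early spleen and 101 in mid spleen. It had 104 and 3.23 CPM in early liver, 167, 136 and 359 in mid liver and 143 and 272 in late liver, with a log2 fold change of 4.92 ± 1.18 (SE) for mid liver and 4.85 ± 1.21 for late liver against control (adjusted p = 0.0259 and 0.0221). Tk1, thymidine kinase, had 12.9, 3.83 and 4.79 CPM in controls 1 to 3, 6.31 in the undivided library, 7.55 and 5.37 in early spleen and 30.4 in mid spleen. It had 35.4 and 3.82 CPM in early liver, 247, 45.3 and 108 in mid liver and 278 and 116 in late liver, with a log2 fold change of 4.17 ± 0.78 (SE) for mid liver and 4.58 ± 0.83 for late liver against control (adjusted p = 0.022 and 0.0121). Levels of Tk1 were highest in the 2 TG liver libraries. Tyms, thymidylate synthase, had 16.7, 8.11 and 10.2 CPM in controls 1 to 3, 9.66 in the undivided library, 11.4 and 18.98 in early spleen and 41.2 in mid spleen. It had 43.99 and 9.76 CPM in early liver, 211, 53.3 and 115 in mid liver and 247 and 118 in late liver, with a log2 fold change of 3.34 ± 0.56 (SE) for mid liver and 3.72 ± 0.60 for late liver against control (adjusted p = 0.0217 and 0.0101). Dut, which removes dUTP, had 37.9, 34.4 and 28.9 CPM in controls 1 to 3, 38.2 in the undivided library, 34.2 and 27.7 in early spleen and 74.6 in mid spleen. It had 82.8 and 27.03 CPM in early liver, 351, 91.6 and 190.1 in mid liver and 434 and 199 in late liver, and like Tk1 and Tyms was highest in the TG liver libraries.

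Chromatin assembly factor 1 places histones on new DNA. Chaf1a, its large subunit, had 5.92, 4.42 and 5.73 CPM in controls 1 to 3, 5.52 in the undivided library, 9.80 and 4.43 in early spleen and 44.2 in mid spleen. It had 61.4 and 5.28 CPM in early liver, 148, 57.7 and 134 in mid liver and 121 and 104 in late liver, with a log2 fold change of 4.37 ± 0.85 (SE) for mid liver and 4.31 ± 0.88 for late liver against control (adjusted p = 0.022 and 0.0147). Chaf1b had 22.1, 23.01 and 20.3 CPM in controls 1 to 3, 22.6 in the undivided library, 22.7 and 14.7 in early spleen and 44.3 in mid spleen. It had 41.7 and 15.7 CPM in early liver, 116, 42.7 and 90.1 in mid liver and 128 and 88.1 in late liver, with a log2 fold change of 1.85 ± 0.41 (SE) for mid liver and 2.17 ± 0.45 for late liver against control (adjusted p = 0.0227 and 0.0134). Both subunits were above all controls in every mid and late library.

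Among the G1/S regulators E2f1 rose and E2f2 did not pass. E2f1, an activator of S phase genes, had 5.85, 4.63 and 2.74 CPM in controls 1 to 3, 3.88 in the undivided library, 5.25 and 2.81 in early spleen and 28.6 in mid spleen. It had 20.5 and 2.02 CPM in early liver, 99.8, 27.3 and 64.1 in mid liver and 92.01 and 65.1 in late liver, with a log2 fold change of 3.77 ± 0.80 (SE) for mid liver and 4.02 ± 0.85 for late liver against control (adjusted p = 0.0227 and 0.0152). E2f2 had 17.3, 19.1 and 2.93 CPM in controls 1 to 3, 2.79 in the undivided library, 7.83 and 3.13 in early spleen and 37.6 in mid spleen. It had 39.8 and 2.76 CPM in early liver, 84.9, 48.9 and 101 in mid liver and 63.2 and 80.2 in late liver, with a log2 fold change of 2.57 ± 0.99 (SE) for mid liver and 2.42 ± 1.04 for late liver against control (adjusted p = 0.0816 and 0.101). The controls of E2f2 spanned 6.52-fold, the widest of any member, with both day 0 libraries high and the day 18 library low. All mid and late libraries were still above all controls. Ccne1, cyclin E1, had 23.3, 16.3 and 15.7 CPM in controls 1 to 3, 20.2 in the undivided library, 16.8 and 14.3 in early spleen and 34.2 in mid spleen. It had 39.6 and 18.7 CPM in early liver, 129.9, 39.8 and 77.2 in mid liver and 158 and 68.1 in late liver, with a log2 fold change of 2.05 ± 0.34 (SE) for mid liver and 2.33 ± 0.37 for late liver against control (adjusted p = 0.0217 and 0.00926). Ccne2, cyclin E2, had 2.70, 2.98 and 2.54 CPM in controls 1 to 3, 2.86 in the undivided library, 3.50 and 2.52 in early spleen and 12.4 in mid spleen. It had 14.2 and 3.63 CPM in early liver, 18.9, 13.3 and 27.3 in mid liver and 21.5 and 23.7 in late liver, with a log2 fold change of 2.83 ± 0.49 (SE) for mid liver and 3.03 ± 0.53 for late liver against control (adjusted p = 0.0217 and 0.0101). Both cyclins were among the members with the smallest adjusted p in mid liver.

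**Figure D3:**
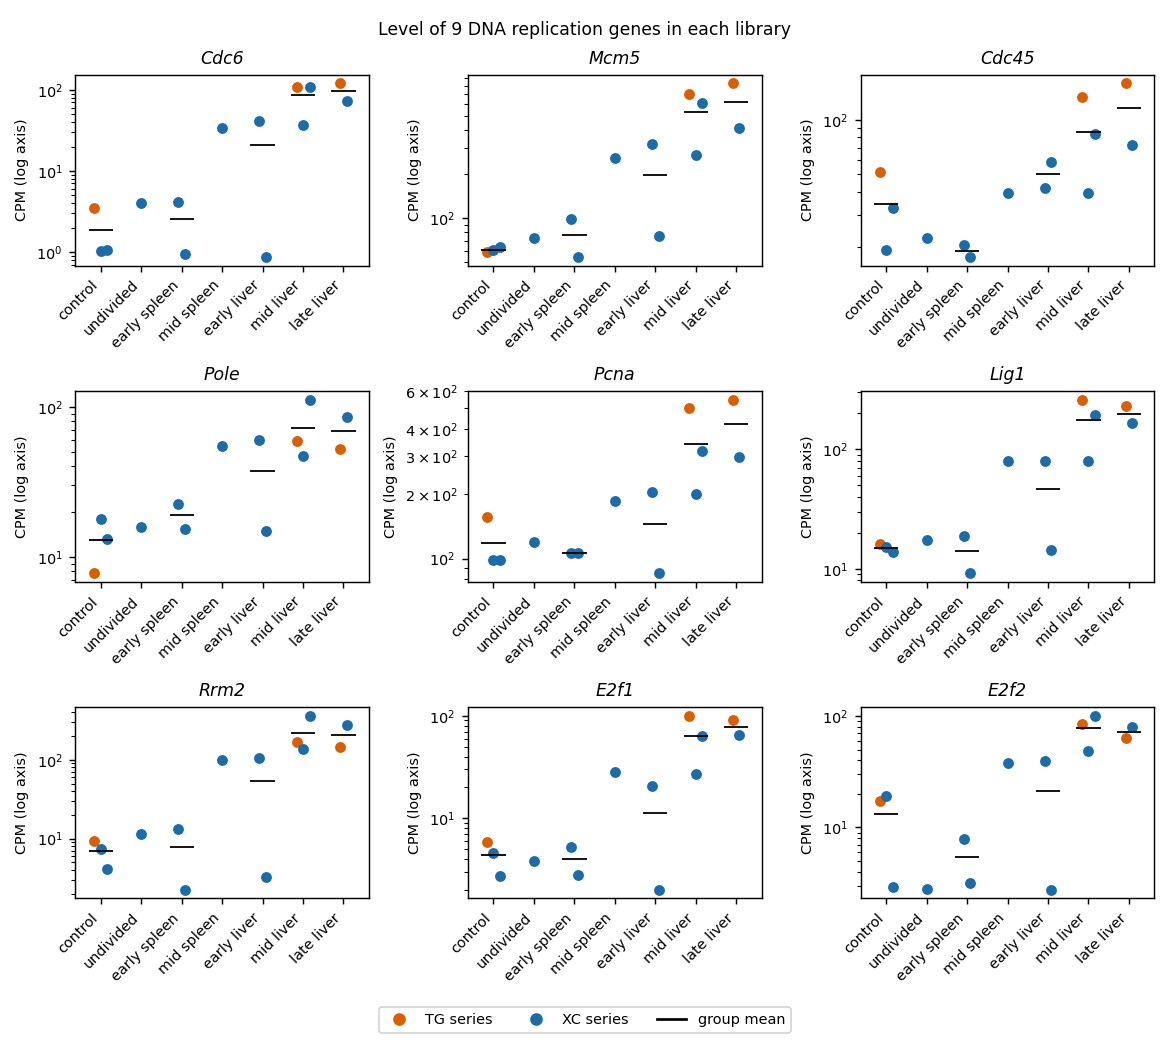
CPM on a log axis for 9 members in each low-input library, by group; each point is 1 library, orange for the TG and blue for the XC series, and the bar is the group mean where a group has more than 1 library. Mid and late liver lie above control for each gene shown except Cdc45, where mid liver 2 lies within the controls.

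**Figure D4:**
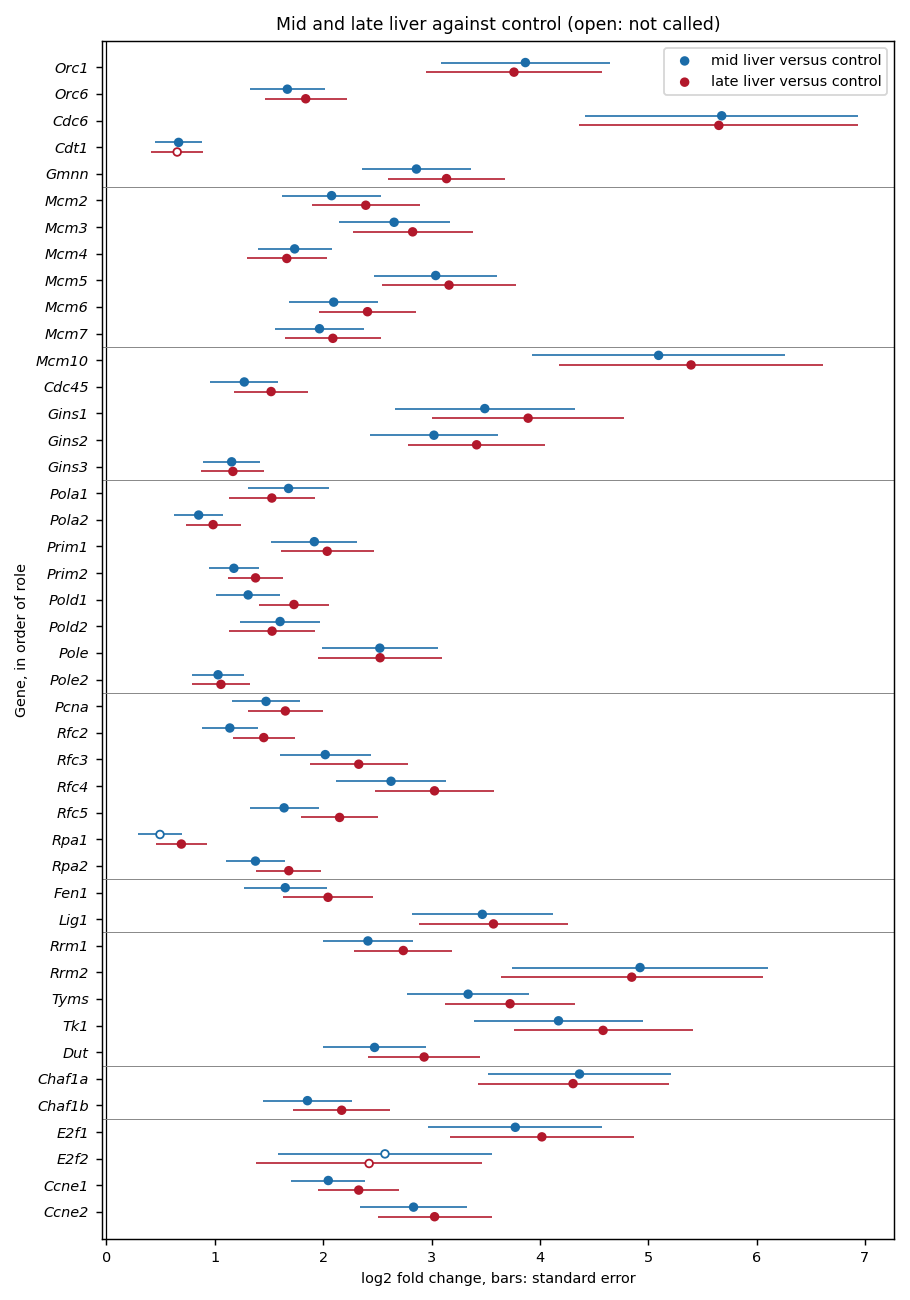
Log2 fold change with its standard error for each of the 44 members, mid liver (blue) and late liver (red) against control, ordered by role; open points did not pass the threshold. All points lie above 0, from 0.49 for Rpa1 to 5.68 for Cdc6, both in mid liver.

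All 44 members were higher than every control in both late libraries, as were 28.7% of all tested genes, and 42 in all 3 mid libraries, as were 21.8% of all tested genes. The exceptions in mid liver were Cdt1 and Cdc45. Levels of hepatocyte RNA and of the members were set side by side. The mean rise over the members above the control mean, on the log2 CPM scale, was 2.80, 1.65 and 2.64 in mid liver 1 to 3 and 2.91 and 2.47 in late liver 1 and 2, beside the Alb levels given above in the same order. Late liver 1, mid liver 1, late liver 2 and mid liver 2 came in this order, from high to low, by Alb and by mean rise. Mid liver 3 had the least Alb and the third largest rise. Late liver 1 and mid liver 1, highest in both, are the liver libraries of the TG series. The part of hepatocyte RNA or of series in this order was not tested. Mid spleen held 0.162 CPM of Alb and a mean rise of 1.51.

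Mid and late liver were then compared with each other. No member passed (0 of 44, edgeR, 0 at an unadjusted p under 0.05, and 0 by DESeq2). Of all tested genes edgeR called 0%, with 783 at an unadjusted p under 0.05, and DESeq2 called 32 genes. The median log2 fold change of late over mid was 0.20, with 35 of 44 above 0. The largest were Rfc5 at 0.51 (95% interval -0.28 to 1.30), Dut at 0.46 (-0.69 to 1.60) and Pold1 at 0.42 (-0.31 to 1.16). The smallest were Pola1 at -0.15 (-1.08 to 0.77), E2f2 at -0.15 (-2.59 to 2.30) and Orc1 at -0.11 (-1.91 to 1.70). The interval reached above a log2 fold change of 1 for 32 members and below -1 for 15, so differences of 2-fold were not excluded for them. In 43 of 44 members the mid and late libraries overlapped. The share over all tested genes was not determined, so this count is not read as a trait of the members. The sign of the median rested on mid liver 2, the lowest mid library, since without it the median was -0.0030.

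**Figure D5:**
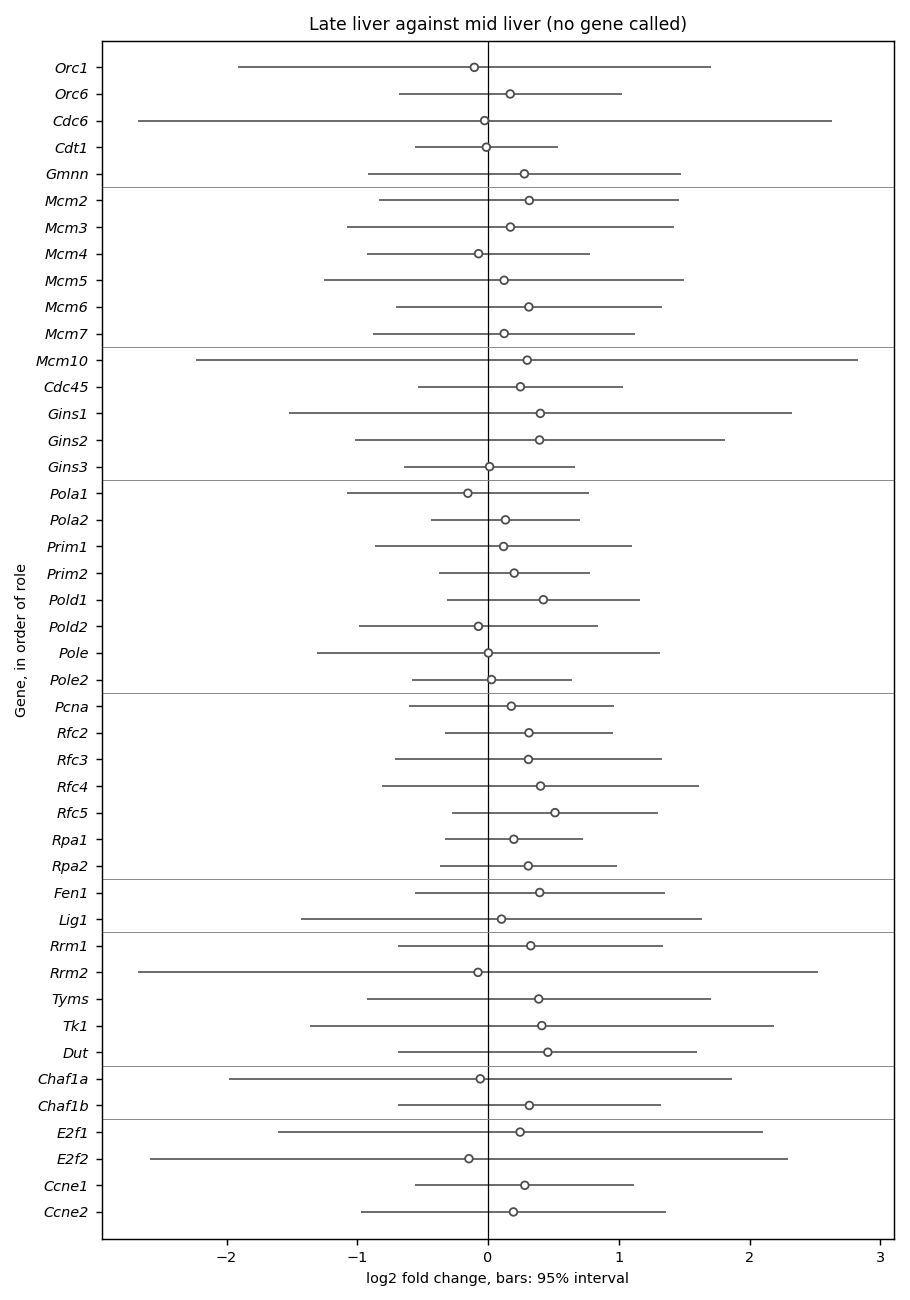
Log2 fold change of late over mid liver with its 95% interval for each of the 44 members, ordered by role; open points did not pass the threshold. Every interval crosses 0.

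At the early time point the 2 liver libraries disagreed. The mean of the members was 1.68 above the control mean on the log2 CPM scale in early liver 1 and -0.14 in early liver 2, and 42 of 44 were higher in the first. Early liver 1 was above all controls for 41 members, where 31.4% of all tested genes were, and early liver 2 for 7, where 24.1% were. Both were for 5 (Mcm4, Mcm5, Gins3, Pold1 and Ccne2), where 9.86% were. Cdc6 was 47.1-fold higher in early liver 1 than in early liver 2. No member passed in early liver against control by edgeR (0 of 44), where 0% of all tested genes were called. With DESeq2 3 members passed, where 351 of all genes were called. By edgeR 22 members had an unadjusted p under 0.05, and the median log2 fold change was 1.002. Largest were Cdc6 at 4.02, Mcm10 at 3.15 and Rrm2 at 2.84, and smallest Pole2 at 0.07, Rpa1 at 0.10 and Gins3 at 0.29. Without early liver 2 the median of the members was 1.58, and without early liver 1 it was 0.10.

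Mid against early liver had the same dependence. No member passed (0 of 44 by edgeR and by DESeq2, 17 and 31 at an unadjusted p under 0.05). Of all tested genes edgeR called 0%, and DESeq2 called 464 genes. The median was 1.08. E2f1 at 2.13, Rrm2 at 2.08 and Tk1 at 2.01 were largest, and Pold2 at 0.22, Cdc45 at 0.29 and Cdt1 at 0.30 smallest. On protein-coding transcripts alone Cdc45 was at 1.64. Without early liver 1 the median of the members was 2.14, and without early liver 2 it was 0.53.

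Early spleen gave no call against control. No member passed (0 of 44, 0 at an unadjusted p under 0.05 by edgeR and DESeq2). Of 15465 tested genes edgeR called 0%, and DESeq2 called 15 genes. The median was 0.10 with 33 of 44 above 0. Its sign was not stable, since the median was -0.10 without the series term (19 above 0) and -0.14 without early spleen 1 (15 above 0). The 2 early spleen libraries lay on opposite sides of the controls. On the log2 CPM scale the mean of the members minus the control mean was 0.27 in early spleen 1 and -0.28 in early spleen 2. Over all tested genes it was -0.03 and 0.22. Both early spleen libraries were above all controls for 4 members (Orc1, Mcm10, Pola1 and Rrm1), where 7.57% of all tested genes were. Mcm10 at 1.20, Cdc6 at 0.999 and Tyms at 0.81 had the largest log2 fold changes, and E2f2 at -1.17, Cdc45 at -0.42 and Fen1 at -0.27 the smallest. On protein-coding transcripts alone Cdc45 was at 0.23. Both early spleen levels of E2f2 lay below the day 0 controls and above control 3. In early liver against early spleen no member passed either (0 of 44 by edgeR and by DESeq2, 8 and 22 unadjusted). Of all tested genes edgeR called 0%, and DESeq2 called 61 genes. The median of the members was 0.91. Cdc6 at 3.03, Rrm2 at 2.77 and Chaf1a at 2.23 were largest, and Gins3 at 0.12, Pole2 at 0.13 and Rpa1 at 0.29 smallest. Without early liver 2 that median was 1.49, and without early liver 1 it was -0.06.

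The single libraries had no test. Mid spleen was above all controls for 42 members, where 28.5% of all tested genes were, all but Cdt1 and Cdc45, and its level was 0.95-fold (Cdt1) to 18.1-fold (Cdc6) of the control mean with a median of 2.51-fold. On protein-coding transcripts alone Cdc45 had 27.8 CPM in mid spleen, against 2.59 to 6.91 CPM in controls. Of the 44, 33 were lower in mid spleen than in every mid liver library, where 30% of all tested genes were, and none was higher than all of them, where 29.3% were. Undivided cells were above all controls for 14 members, where 21.9% of all tested genes were, within them for 28 and below for 2 (Cdt1 and E2f2), where 17.6% were, with a median of 1.06-fold of the control mean. The largest was Cdc6 at 2.17-fold and the smallest E2f2 at 0.21-fold. The control mean of E2f2 was set by the high day 0 libraries. Its undivided level lay just below that of control 3, the leukemia-free library of the same day and series. The undivided cells came from day 18, the time of late liver 1, but from spleen. The oligo-dT day 0 library was within the range of the controls for 16 members, above for 10, where 31.3% of all tested genes were, and below for 18, where 33.5% were. Cdc45 was 3.64 CPM there against 19.1 to 51.5 in the controls, and Gins2 39.5 against 4.28 to 18.5. The part of the priming method was not tested.

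Other genes of the same pathway were listed by function, with earlier results of these data known. Of 45 such genes 29 were higher and 3 lower in late liver and 26 higher and 2 lower in mid liver, with medians of 0.98 and 0.85. Of 14 initiation genes 7 were higher in late liver, with the largest log2 fold changes for Ticrr (3.71) and Recql4 (3.26) and values of 0.0026 for Orc5 and -0.00015 for Donson. Of 16 fork genes 12 were higher, led by Clspn (3.27) and Dna2 (2.89), with Pole4 (0.42) and Pold4 (0.43) the smallest and not called. Of 15 genes for nucleotides and chromatin 10 were higher, led by Uhrf1 (4.63) and Asf1b (3.91), and 3 lower, with Rrm2b (-1.28) and Tk2 (-1.21) the smallest. These last are the p53-induced reductase subunit and the mitochondrial thymidine kinase, which supply deoxynucleotides outside S phase.

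Of 11 E2F and RB family genes 5 were higher and 1 lower in late liver, led by the repressors E2f8 (5.44) and E2f7 (3.17), while E2f5 fell by 0.65 and Rbl2 (-0.38) was not called. Of 8 cyclins and kinases of G1 and S phase 5 were higher and 1 lower, led by Ccna2 (5.85) and Cdk6 (2.36), while Ccnd1 fell by 2.56 and Ccnd3 (0.23) was not called. All 12 mitosis genes rose, from Aurka (3.42) and Cenpf (4.32) to Plk1 (5.93) and Aurkb (6.14). The 10 tested genes outside the members that were most like their mean z-score over the 14 low-input libraries included Eme1, Cdca8, Tcf19, Knstrn, Tacc3, Cenpm, Hist1h2ap, Tipin and Ube2l3, and the 10 were at Pearson r from 0.988 to 0.994. The members themselves were at 0.79 to 0.995 with a median of 0.967. These points share libraries and group differences, and r is given as a description.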

How the data were processed

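RNA of sorted TCRTg101 was sequenced by the authors on low-input libraries in 2 batches, and reads were processed with bcl2fastq and kallisto (versions not given in the sources used here; build GRCm38/mm10). The authors deposited an estimated count for each transcript (an expected count that need not be whole). Beside it they deposited TPM, corrected for length and depth. Gene values were made by adding the estimated counts of a gene's transcripts (GENCODE vM21; 98.25% of transcripts matched), then over runs of 1 library, and rounded. A gene was tested where 6 or more libraries held 10 or more counts (14616 with 11 libraries, 15465 with all 14 low-input libraries for the spleen comparisons). Tests were edgeR 4.0.16 quasi-likelihood tests (R 4.3.3, two-sided), with group and series in the model, adjusted by Benjamini-Hochberg at 0.05. The fit of 11 libraries had TMM factors of 0.754 to 1.12 and 5 residual degrees of freedom. CPM levels used TMM factors over all 15 libraries, from 0.730 to 1.23. Standard errors and 95% intervals were derived from the F statistic. Log2 CPM used a prior count of 2. TPM served only for levels between genes. DESeq2 1.42.0 and other settings are alternatives. Plots used matplotlib 3.10.9. PCR reads are not independent molecules, and the 1 to 3 libraries a group limit precision.

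On simulated data with 200 changed genes, the test recovered 66% of genes with a log2 fold change of 2 for mid liver against control (14427 genes). It recovered 63% for late (14409) and 52% for late against mid (14413), with 6.33%, 6.94% and 5.26% of calls false. It recovered 45% for early liver and 45% for early spleen against control, with 2.08% and 2.04% false. Mid against early liver gave 50% and 0% false, and early liver against early spleen 39% and 10.42% false. The simulation held no series effect and far fewer changed genes than were called in mid and late liver against control. These rates need not hold for the real data.

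The members and lists were chosen with earlier results of these data known. All 44 members could be named. Values in every library were given for 21 of them and for the 3 largest and 3 smallest log2 fold changes of each comparison, members that did not pass were named, and the 2 largest and 2 smallest genes of each other list were named, as were the 10 genes outside the members with the highest r to their mean, of which 1 is not reported here.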

Additional observations from a re-analysis of the deposited data

Results flagged for a closer look

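Libraries in no comparison held levels above the controls. In the mid spleen library (day 14) 42 of the 44 members were above all 3 controls, where 28.5% of all tested genes were. In the undivided library (day 18) 14 were, where 21.9% of all tested genes were, while 28 were within and 2 below the controls, at a median of 1.06-fold of the control mean. With 1 library each, neither was tested, and the cause was not tested.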

How the results depend on the processing

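Members called in mid liver against control (42) numbered 33 to 43 under the alternative tests, normalization, filter, model, run, control and transcript choices, except 0 with the XC series alone (40 at an unadjusted p under 0.05), and 0 to 42 with 1 library left out. In late liver against control (42) they numbered 38 to 42, except 0 with the XC series alone (39 unadjusted), and 0 to 39 with 1 library left out. For early liver against control (0) DESeq2 called 3 and no filter on low counts 27, and leaving out 1 library gave 0 to 29. No filter also gave 30 for mid against early liver (0 to 34 with 1 library left out), 2 for early spleen against control (0 throughout) and 22 for early liver against early spleen (0 to 20). Late against mid liver stayed at 0 in all settings. The cause of these differences between settings was not tested. Shares over all tested genes are not set beside these member counts, so the counts are not read as a trait of the members. No median of mid or late liver against control changed sign. Without mid liver 2, early spleen 1 or early liver 1, the medians of late against mid liver, early spleen against control and early liver against early spleen were -0.0030, -0.14 and -0.06, and without the series term that of early spleen against control was -0.10.

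Over all tested genes, calls fell from 4568 to 1388 without the series term, 2361 with day 0 controls and 0 with XC alone in mid liver, and from 5482 to 2699 and 0 in late liver. Comparisons with 0 calls gave 351, 32, 464, 15 and 61 by DESeq2 and 1483, 434, 1422, 643 and 984 without the filter (early liver, late against mid, mid against early, early spleen, early liver against early spleen), and 19 in early liver with day 0 controls. For single members, 238 values in mid liver and 189 in late liver lost their call under an alternative and none changed sign. No paired analysis was possible because the library numbers in the titles do not repeat across groups.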
